A study of Sus scrofa with 4 samples.

Results

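The genes described here are the extracellular metalloproteinases of the ADAM, ADAMTS and matrix metalloproteinase (MMP) families, together with the protease-free ADAMTS-like (ADAMTSL) proteins and the tissue inhibitors of metalloproteinases (TIMP). They were taken by gene symbol, as every symbol made of ADAM, ADAMTS, ADAMTSL, MMP or TIMP and a number, without MMP3, MMP7 and TIMP3. This choice was made with earlier results of these data known. This gave 62 of 30282 pig genes, made up of 19 ADAM, 19 ADAMTS, 5 ADAMTSL, 16 MMP and 3 TIMP genes. MMP1 and MMP10 carried no name in the feature tables and were not analysed here.

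Droplet-based single-cell RNA sequencing had been carried out on 2 libraries of porcine pancreatic ductal organoids (PPDO) and 2 libraries of primary pig pancreas. PPDO are three-dimensional cultures grown from pancreatic ducts in a basement membrane matrix and a growth factor medium, and the study describes the lines as from a late postnatal and from an adult pig, taken at different passages, without the labels saying which library is which. The sample names in its methods place both ages in its late postnatal range. By the study's account most cells of both lines had already turned to a less mature ductal state. Cultures that it calls early passage were not among these libraries, so the values below describe the later cultures. The primary pancreata came from 2 late postnatal pigs of German landrace background, a wild-type animal and an INS-eGFP animal that carries a green fluorescent reporter under the insulin promoter. If the numbers in the labels are those of the study's methods, ducts were picked by hand for the first library, whereas the second was a pool of lectin-sorted duct cells, reporter-positive cells and whole suspension, so class sizes do not describe the organ. Both groups were dissociated with enzymes and sorted for live cells, and group, animal, age, culture medium, passaging and preparation cannot be told apart.

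The libraries held 6999 to 9853 cell barcodes and 87043513 to 366263520 unique molecular identifiers (UMIs, counted molecules), and between 10 and 23 barcodes were shared by any pair of libraries. After filtering, 8885 and 7337 cells of PPDO and 5679 and 4245 cells of primary pancreas were kept. Levels are given as counts per 1000000 UMIs (CPM) of a summed class of cells, and free RNA was not subtracted. The PPDO sums held 300990260 and 262372786 UMIs and the sums of 2163 and 1167 primary ductal-like cells 43207312 and 24947567 UMIs, so that low levels were measured more precisely in PPDO. All 8 measured ductal markers were detected in PPDO, at a summed 971 and 867 CPM against 28097 and 32471 CPM in the ductal-like sums, whereas 7 basal cell markers summed to 8861 and 11536 CPM in PPDO and to 163 and 116 CPM in ductal-like cells.

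ADAM proteases sit in the cell membrane and cut the outer part off neighbouring membrane proteins, a process called shedding that frees growth factors and cytokines. ADAMTS proteases are secreted and act on proteoglycans, procollagens and the microfibrils of the extracellular matrix, and ADAMTSL proteins keep the matrix-binding domains without the protease. MMP genes encode secreted or membrane-bound enzymes that degrade collagen, gelatin and other matrix proteins, most are made as inactive precursors, and TIMP proteins block them. Duct epithelium rests on a basement membrane, and the organoids were grown in a matrix of that kind.

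The first question was how these genes differ between organoid cells and the duct cells they are derived from. Counts were summed per library over the kept PPDO cells and over the ductal-like cells of the primary pancreas, and the 4 sums were tested with edgeR's quasi-likelihood test at a Benjamini-Hochberg adjusted p (FDR) under 0.05, fold changes being PPDO over primary. The fit used scaling factors (TMM) of 0.879 and 0.833 for PPDO and 1.07 and 1.27 for the primary sums. The printed CPM rest on library totals without these factors. A fitted log2 fold change can therefore differ from the CPM ratio, also in sign. With 2 libraries a group an exact permutation test cannot go below p = 0.333. ADAMTS18, ADAMTS9, ADAMTS15 and MMP15 were lower in PPDO than in duct cells, and TIMP1 and ADAMTS17 were higher. Of 60 members tested, 12 were higher and 12 lower in PPDO, and 36 did not pass. Over all 23525 genes tested, 22.7% were higher and 20.8% lower (43.5% in either direction), so the share of members called, 40.0%, was near that of the genome. The median log2 fold change was -0.10 over the members and 0.01 over all genes. ADAM7 had no UMI in either group and ADAMTS14 was too low to be tested. Without PPDO 2, 10 members were higher and 7 lower, or 30.4% of those tested, against 4577 of 21492 genes (21.3%) in the same fit. Without primary pancreas 2, 12 were higher and 17 lower, or 48.3%, against 10727 of 24679 genes (43.5%). The smaller number of members called without PPDO 2 came with a smaller share of all genes called. Of the 62 members, 22 reached a mean of 5 CPM in a group and 26 stayed under 1 CPM in both. In 7 members most UMIs came from features that extend the annotated 3′ end, among them MMP19 with 97.8% and ADAMTSL4 with 96.4%.

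**Figure D1:**
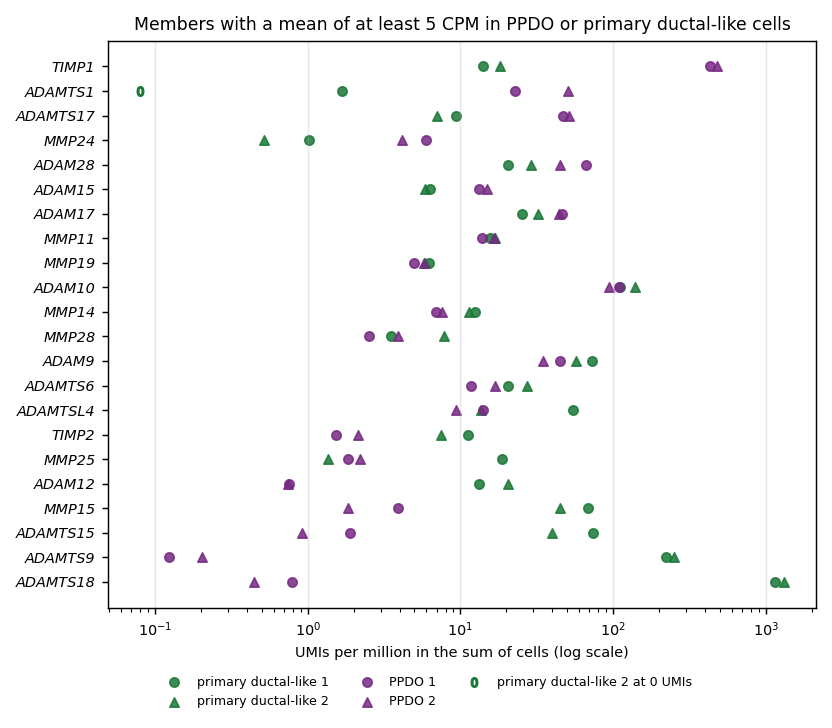
Level of each member with a mean of at least 5 CPM in PPDO or primary ductal-like cells, in CPM on a log axis, for each of the 4 libraries (circles library 1, triangles library 2), ordered by the ratio of the group means. ADAMTS18 lies at 1156 and 1323 CPM in ductal-like cells and under 1 CPM in both PPDO libraries, TIMP1 at 435 and 481 CPM in PPDO against 14.0 and 18.1 CPM, and the 0, placed at the left edge and not to scale, marks the library in which ADAMTS1 had no UMI.

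The largest decreases were found among the secreted ADAMTS proteases. ADAMTS18, a protease known from eye and lung development and from branching organs (Sscrofa11.1 chromosome 6, 10488504 to 10652508), was at 0.794 and 0.442 CPM in PPDO 1 and 2 and at 1156 and 1323 CPM in primary ductal-like cells 1 and 2. ADAMTS9, which cleaves versican and aggrecan (chromosome 13, 46033753 to 46209238), was at 0.123 and 0.202 CPM in PPDO and at 222 and 251 CPM in ductal-like cells. The groups lay far apart for both genes. The log2 fold change was -10.52 ± 0.40 (SE; FDR = 0.000407) for ADAMTS18 and -10.05 ± 0.37 (FDR = 0.000377) for ADAMTS9. ADAMTS15, another proteoglycan-cleaving member (chromosome 9, 57127527 to 57152550), was at 1.90 and 0.919 CPM against 73.5 and 39.6 CPM, with a log2 fold change of -4.93 ± 0.59 (FDR = 0.00417).

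The same was seen in the share of cells. With each cell thinned to 3000 UMIs, ADAMTS18 was found in 0.159% of 8824 and 0.177% of 7327 PPDO cells and in 81.2% of 2051 and 81.8% of 1167 ductal-like cells (1.91%, 1.53%, 93.6% and 95.4% without thinning). ADAMTS9 was found in 0.0227% and 0.0546% of PPDO cells and in 42.4% and 42.8% of ductal-like cells after thinning. Lymphoid-like cells, which should lack ADAMTS18, had it in 2.53% and 2.67% of thinned cells, at a median of 5728 and 5469 UMIs a cell against 34176 and 34459 UMIs in PPDO, so the PPDO shares lay below the background of the primary libraries. Within PPDO, ADAMTS18 stayed between 0.212 and 3.54 CPM in all 9 clusters of either library, the highest value resting on 22 UMIs.

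Among the proteoglycan-cleaving ADAMTS genes, 3 of 7 tested were lower, 1 was higher and 3 did not pass (57.1% called, against 43.5% of all genes tested). ADAMTS1, the member that was higher (chromosome 13, 190277175 to 190285957), was at 22.7 and 50.4 CPM in PPDO and at 1.67 and 0 CPM in ductal-like cells, where the second library had no UMI of it (3 UMIs would be 0.120 CPM). The PPDO libraries differed from each other, and both lay above both duct libraries. Its log2 fold change was 5.71 ± 1.41 (FDR = 0.031), and the call was lost with DESeq2, with the replicate numbers as a block, with ductal-like PPDO cells alone and without either PPDO library. ADAMTS5, which lies next to ADAMTS1 on the same chromosome (190353019 to 190413110), was at 0.0565 and 0.0572 CPM against 0.347 and 0.481 CPM, a log2 fold change of -2.38 ± 0.38 (FDR = 0.00907) at 12 to 17 UMIs per sum, and was not called without either PPDO library. The pair of neighbours thus moved in opposite directions, with both at low or absent counts in some sums. ADAMTS5 had a mean of 293 CPM in primary mural-like cells against 0.414 CPM in ductal-like cells. The part of other cell types in its ductal-like counts was not tested. ADAMTS4, another aggrecanase, had 0.326 and 0.267 CPM in PPDO and 0.579 and 0 CPM in ductal-like cells and did not pass (FDR = 0.875).

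Of 9 other ADAMTS genes, 1 was higher, 2 were lower and 6 did not pass (33.3% called, against 43.5% of all genes tested). ADAMTS17, linked to fibrillin microfibrils, was at 47.0 and 51.5 CPM in PPDO against 9.42 and 7.05 CPM in ductal-like cells, with groups that did not overlap and a log2 fold change of 3.01 ± 0.28 (FDR = 0.00229). ADAMTS19 was lower at under 1 CPM in every sum (-2.34 ± 0.66, FDR = 0.0442), near the threshold, and this call was not followed singly over the other settings. ADAMTS6, which also acts on microfibrils, was at 11.7 and 17.0 CPM against 20.5 and 27.5 CPM and did not pass (FDR = 0.428). ADAMTS13, the protease of von Willebrand factor, was at 7.19 CPM in PPDO 1 and at 0.915 CPM in PPDO 2, with 0.972 and 1.12 CPM in ductal-like cells, so that only the first organoid library stood apart (FDR = 0.118). Among procollagen N-proteinases, ADAMTS2 was lower at 0.299 and 0.564 CPM against 4.14 and 3.89 CPM (-2.77 ± 0.46, FDR = 0.0102), and ADAMTS3 did not pass. Among the 5 ADAMTS-like genes ADAMTSL3 was lower at under 1 CPM (-1.39 ± 0.36, FDR = 0.0342), and the other 4 did not pass (20% called).

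ADAM genes with an active site were called in 5 of 12 cases (41.7%, near the 43.5% of all genes tested), 4 of them higher in PPDO. ADAM17, the sheddase of tumour necrosis factor and of several ligands of the epidermal growth factor receptor, was at 46.6 and 44.3 CPM in PPDO and at 25.5 and 32.5 CPM in ductal-like cells. The ratio of its mean CPM was 1.57, and its fitted log2 fold change was 1.11 ± 0.13 (FDR = 0.00435). ADAM10, the sheddase of Notch receptors and E-cadherin, was at 110 and 93.5 CPM against 111 and 139 CPM. It did not pass (FDR = 0.365), and its fitted log2 fold change of 0.16 ± 0.13 turned to -0.29 when library totals alone were used for scaling. This scaling moved the median log2 fold change of all genes from 0.01 to -0.44.

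ADAM28, an ADAM of leukocytes and epithelia, was at 66.6 and 44.8 CPM in PPDO and at 20.6 and 28.9 CPM in ductal-like cells (1.63 ± 0.23, FDR = 0.00621), and neither it nor ADAM17 was called when the family's genes took part in the clustering. ADAM15 was at 13.2 and 14.9 CPM against 6.32 and 5.89 CPM (1.65 ± 0.22, FDR = 0.00581), and ADAM8 at 3.63 and 5.24 CPM against 0.440 and 0.361 CPM (3.89 ± 0.41, FDR = 0.00314). Both PPDO libraries lay above both duct libraries in these 3 genes, which are listed here because they were called higher. The share of all genes that separate in this way was not counted. ADAM12, a protease of mesenchymal cells and myoblasts, moved the other way, at 0.751 and 0.747 CPM against 13.2 and 20.5 CPM (-4.02 ± 0.26, FDR = 0.00104). ADAM9 was at 44.7 and 34.7 CPM against 73.0 and 57.2 CPM and did not pass (-0.29 ± 0.25, FDR = 0.394), but was called lower with library totals alone. ADAM genes that lack the zinc site act in adhesion or fertilisation. Of the 6 tested, 0 passed edgeR's test, against 43.5% of all genes, with FDR from 0.0726 for ADAM23 to 0.919 for ADAM2. In edgeR's test 1 had an unadjusted p under 0.05, and 1 was called by DESeq2.

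**Figure D2:**
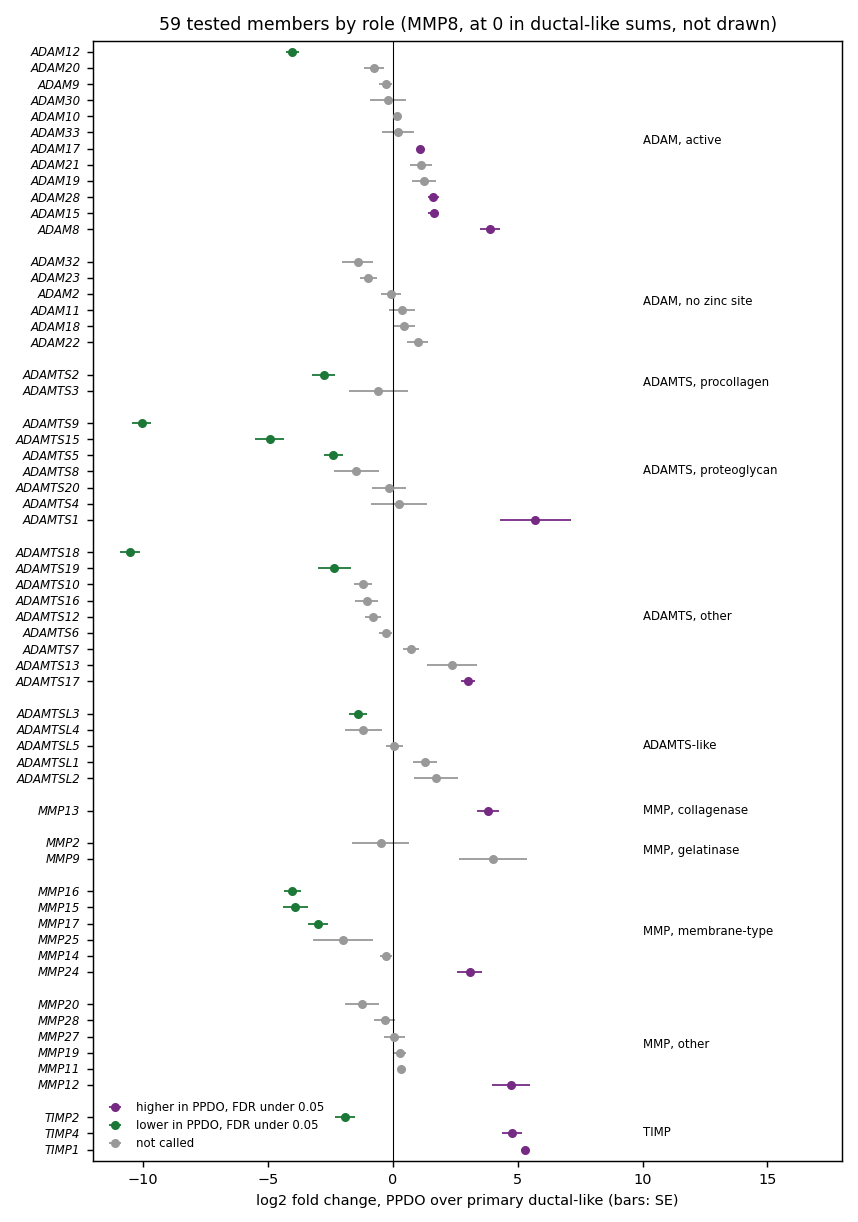
Fitted log2 fold change of PPDO over primary ductal-like cells for 59 tested members (points, bars are the SE), grouped by role on the vertical axis and coloured by call at an FDR under 0.05. ADAMTS18 and ADAMTS9 lie beyond -10, and each role with more than 3 members holds members that did not pass. MMP8 is not drawn because its ductal-like sums held no UMI.

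The membrane-type MMP genes, whose products stay on the cell surface, were called in 4 of 6 cases (66.7%, against 43.5% of all genes tested). MMP15 was at 3.88 and 1.84 CPM in PPDO and at 68.6 and 45.1 CPM in ductal-like cells, with a log2 difference of -3.91 ± 0.50 (FDR = 0.00498). MMP16 was at 0.226 and 0.198 CPM against 3.77 and 5.77 CPM (-4.02 ± 0.33, FDR = 0.00173), and MMP17 at 0.176 and 0.141 CPM against 1.23 and 2.32 CPM (-2.99 ± 0.41, FDR = 0.00607). MMP24 was higher at 5.95 and 4.13 CPM against 1.02 and 0.521 CPM (3.08 ± 0.49, FDR = 0.00912). MMP14, the activator of the gelatinase MMP2, was at 6.93 and 7.64 CPM against 12.4 and 11.5 CPM and did not pass (-0.27 ± 0.22, FDR = 0.371). MMP25 was at 18.7 CPM in ductal-like cells of primary pancreas 1 and at 1.36 CPM in those of primary pancreas 2, with 1.83 and 2.20 CPM in PPDO, and was not called (FDR = 0.239).

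Of 10 MMP members outside the membrane type, 3 were higher in PPDO and 7 did not pass, where 22.7% of all genes tested were higher and 20.8% lower. The collagenase MMP13 was at 4.71 and 3.36 CPM in PPDO against 0.255 and 0.561 CPM in ductal-like cells (3.82 ± 0.44, FDR = 0.00387). The collagenase MMP8 had 29 and 40 UMIs in the PPDO sums and none in the ductal-like sums, which made it at least 2.78-fold higher when 3 counts over both duct sums are taken as the floor (FDR = 0.0302). MMP12, the macrophage elastase, was at 0.302 and 0.309 CPM against 0.0231 and 0 CPM (FDR = 0.00952). These 3 genes lie within a run of MMP genes on chromosome 9 that starts with MMP20 at 33261448 and ends with MMP13 at 33616700, and the other members there, MMP20 and MMP27, did not pass. The gelatinases MMP2 and MMP9 did not pass (FDR = 0.761 and 0.0722), with MMP2 at 0.0565 and 0.290 CPM in PPDO against 0.509 and 0.0802 CPM, and MMP9 at 0.116 and 0.602 CPM against 0.0231 and 0.0401 CPM. MMP28, an MMP of keratinocytes, was at 2.52 and 3.88 CPM against 3.54 and 7.86 CPM and did not pass (FDR = 0.576). MMP11 was at 13.8 and 16.6 CPM against 15.7 and 16.9 CPM (0.35 ± 0.19, FDR = 0.202). MMP19 was at 4.95 and 5.81 CPM against 6.23 and 5.89 CPM (0.27 ± 0.25, FDR = 0.42), and the groups of these genes lay close together. For MMP11 and MMP19 the ratio of mean CPM, PPDO over ductal-like, was 0.931 and 0.888, opposite in direction to the fitted values.

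All 3 TIMP members passed the test, against 43.5% of all genes tested, TIMP3 not being among them. TIMP1, a broad inhibitor of secreted MMPs (chromosome X, 42103251 to 42106289), was at 435 and 481 CPM in PPDO and at 14.0 and 18.1 CPM in ductal-like cells, with a log2 difference of 5.30 ± 0.18 (FDR = 0.000332). After thinning to 3000 UMIs, TIMP1 was found in 53.5% and 56.2% of PPDO cells and in 3.41% and 4.88% of those of the ductal-like class (92.6%, 94.1%, 18.7% and 24.5% without thinning). In thinned lymphoid-like cells the share was 3.38% in primary pancreas 1, near the ductal-like share of that library, and 0 of 75 cells in primary pancreas 2, which allows up to 4%. In thinned endocrine-like cells of primary pancreas 2 it was 0.686% of 2187 cells, below the 4.88% of ductal-like cells there. TIMP4 was at 3.87 and 2.75 CPM against 0.162 and 0.160 CPM (4.78 ± 0.39, FDR = 0.00169). TIMP2, which both inhibits MMPs and helps MMP14 to activate MMP2, was lower, at 1.53 and 2.13 CPM against 11.2 and 7.42 CPM (-1.92 ± 0.40, FDR = 0.0197), and was not called without either PPDO library.

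Markers of other cell types were detected in both groups beside these values. Lists of cell states were higher in PPDO, with 10 cornifying markers at a summed 1525 and 3577 CPM against 0.671 and 0.922 CPM in ductal-like cells. The 12 glycolysis markers summed to 13017 and 14339 CPM against 1824 and 1979 CPM, and the 8 proliferating markers to 91.0 and 147 CPM against 32.1 and 7.05 CPM. The 10 fibroblast markers summed to 15.1 and 9.50 CPM in ductal-like cells and to 9.27 and 8.22 CPM in PPDO, against 25399 CPM in fibroblast-like cells, and none was at 0. The 10 endothelial markers summed to 133 and 74.3 CPM in ductal-like cells and to 76.6 and 65.6 CPM in PPDO, against 8914 and 11611 CPM in endothelial-like cells. The 10 mural markers summed to 86.9 and 84.1 CPM in ductal-like cells and to 98.2 and 103 CPM in PPDO, against 21064 and 17869 CPM in mural-like cells, where TIMP2 was at 119 and 309 CPM. The 14 endocrine markers summed to 192 and 8211 CPM in ductal-like cells against 10.4 and 10.9 CPM in PPDO. The 12 acinar markers summed to 619 and 542 CPM in ductal-like cells against 37.6 and 42.0 CPM in PPDO, and the 5 mast cell markers to 1049 and 1950 CPM against 71.5 and 137 CPM. The 9 Schwann cell markers moved the other way, at 847 and 1113 CPM in ductal-like cells against 3649 and 3510 CPM in PPDO, as did the 7 B lineage markers, at 554 and 576 CPM against 1801 and 2008 CPM. The mast cell list includes KIT, a leading gene of a ductal-like cluster, and HDC was at 0 in the second ductal-like sum. No primary cluster was named by the mast cell or B lineage list. Sums were not split by gene, so they need not stand for the cell type of the list. Another primary class held ADAM12, ADAMTS2, ADAMTS5, ADAMTS19, ADAMTSL3, MMP16, MMP17 and TIMP2 at over 2 times the ductal-like level. ADAMTSL3, for example, was at 552 CPM in fibroblast-like cells against a mean of 0.584 CPM in ductal-like cells. The part of other cell types in the lower calls of these genes was not tested. The 12 myeloid markers summed to 41.9 and 34.3 CPM in PPDO and to 25.8 and 27.9 CPM in ductal-like cells, with LYZ at 0 in all 4 sums, and their part in the higher levels of ADAM8 and ADAM28 was not tested. In the PPDO cells of the cluster named ductal-like by its markers, TIMP2 had a log2 fold change of 1.11 over primary ductal-like cells and did not pass (FDR = 0.0842), whereas ADAMTS18, ADAMTS9, ADAMTS15 and MMP15 stayed lower.

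Partners, activators and substrates of these proteases were then examined in the same fit. Tetraspanins and iRhom proteins bring ADAM10 and ADAM17 to the cell surface, and of 9 such partners 2 were higher and 2 lower in PPDO. TSPAN17 was at 15.1 and 19.7 CPM against 5.99 and 6.45 CPM (1.94 ± 0.23, FDR = 0.00428) and TSPAN10 was also higher. TSPAN15, the tetraspanin that directs ADAM10 to cadherins, was at 7.32 and 7.20 CPM against 30.5 and 58.2 CPM (-2.13 ± 0.28, FDR = 0.00521) and TSPAN33 was also lower. The iRhom genes RHBDF1 and RHBDF2 and their partner FRMD8 did not pass (FDR = 0.0613, 0.075 and 0.109).

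Of 10 measured activators and inhibitors of MMPs, 1 was higher and 5 were lower. PLAU, the urokinase that turns plasminogen into the MMP activator plasmin, was at 46.1 and 59.5 CPM in PPDO against 0.555 and 0.0401 CPM (7.68 ± 0.88, FDR = 0.00375). FURIN, a convertase that activates membrane-type MMP and ADAM precursors, was at 10.5 and 11.5 CPM against 49.4 and 54.4 CPM (-1.78 ± 0.16, FDR = 0.0021), and PCSK5 was lower as well. The inhibitors RECK (-2.25 ± 0.29, FDR = 0.00519) and A2M (-3.04 ± 0.66, FDR = 0.0215) and the plasminogen activator PLAT were lower, the last with 135 and 20.1 CPM in the primary libraries. Of 6 measured ligands that ADAM10 or ADAM17 sheds, AREG was higher, at 284 and 322 CPM against 10.3 and 2.93 CPM (5.89 ± 0.79, FDR = 0.00558), BTC was lower, at 0.382 and 0.168 CPM against 8.63 and 12.6 CPM (-4.81 ± 0.49, FDR = 0.00285), and HBEGF, TGFA, EREG and TNF did not pass. HBEGF was at 133 and 157 CPM in PPDO and at 37.8 and 1.60 CPM in the ductal-like sums, which differed from each other. The shares called were 44.4%, 60.0% and 33.3% in these 3 lists of 10 genes or fewer, against 43.5% of all genes, and their median log2 fold changes were -0.50, -1.33 and 0.94.

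The second question was which cells of the pancreas express these genes. Primary cells were clustered without the family's own genes and named by markers, and each class present in both libraries was compared with the mean of the other classes on the log scale, in 1 edgeR fit with the library as a term. A class can therefore be called higher for a gene that 1 or more other classes hold at a still higher level. By mean CPM this held for 17 of 25 members called higher in mural-like, 17 of 21 in endothelial-like and 10 of 13 in ductal-like cells. It held for 7 of 8 in endocrine-like, 5 of 6 in acinar-like, 3 of 4 in lymphoid-like and 4 of 12 in myeloid-like cells. Fibroblast-like cells (311 and 11) and Schwann-like cells (341 and 1) reached 20 cells in primary pancreas 1 alone, so they entered the mean of the others and have no test of their own. Of 62 members, 50 passed the filter on low counts, and 44 reached a mean of 10 CPM in a class. Among these 44, the highest mean was in fibroblast-like cells for 17, mural-like cells for 8, myeloid-like cells for 6, Schwann-like cells for 5, endothelial-like cells for 4, ductal-like cells for 3 and acinar-like cells for 1. Over the 7 classes with both libraries, 28 of 37 members with 10 CPM in their highest class had the same highest class in both libraries.

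**Figure D3:**
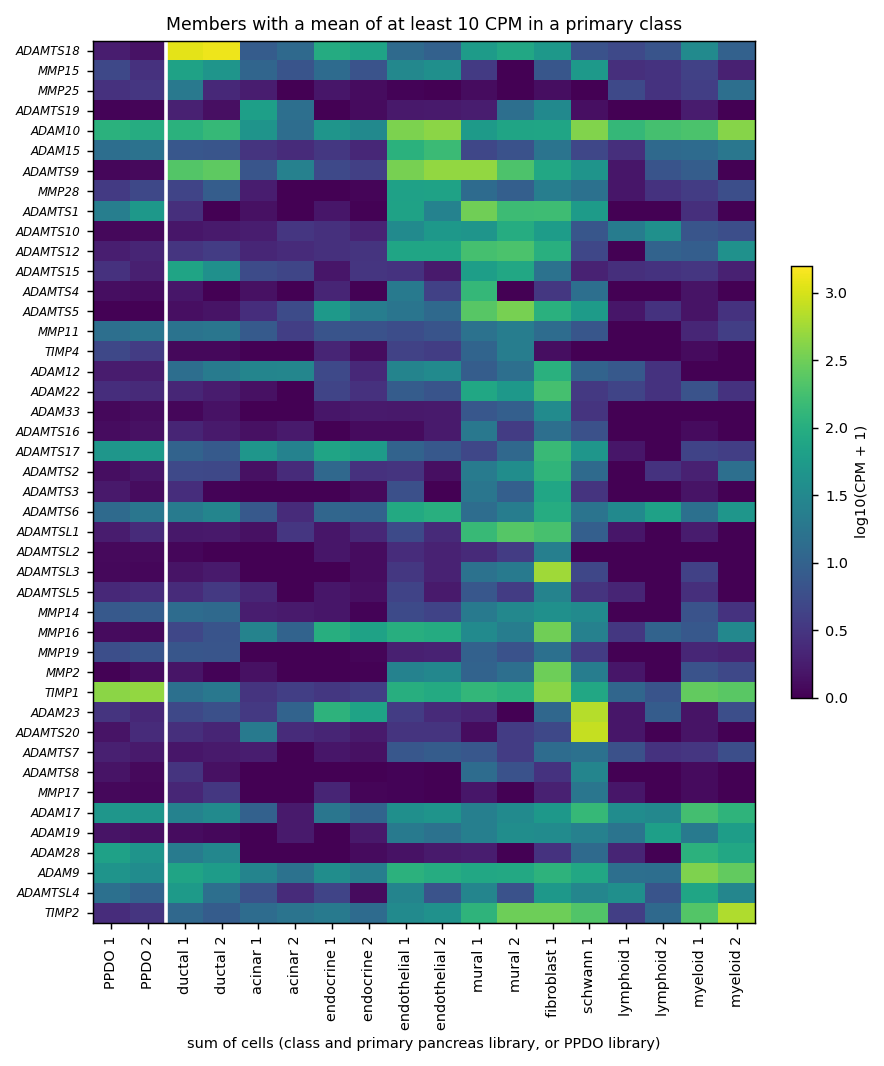
Heat map of log10(CPM + 1) for the 44 members with a mean of at least 10 CPM in a primary class (rows, ordered by the class of their highest mean) in the 2 PPDO libraries, left of the white line, and in each primary class and library with at least 20 cells. ADAMTS18 stands out in ductal-like cells, ADAM23 and ADAMTS20 in Schwann-like cells, and 17 rows have their highest mean in fibroblast-like cells.

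In mural-like cells (pericytes and smooth muscle cells), 25 members were higher and 5 lower (background 13.9% and 5.06% of 18104 genes), with a median log2 fold change of 1.65 over the 50 members against -0.02 over all genes. ADAMTS1 was at 324 and 153 CPM there (log2 fold change over the mean of the other classes 7.0 ± 0.42, FDR = 1.54e-10), and ADAMTSL1 at 143 and 225 CPM (5.81 ± 0.31, FDR = 1.67e-11). ADAMTS5 was at 233 and 353 CPM in mural-like cells, so that the neighbours ADAMTS1 and ADAMTS5 were both high in this class. ADAMTS4 was at 134 CPM in primary pancreas 1 and had no UMI in the 41 mural-like cells of primary pancreas 2 (3 UMIs would be 8.21 CPM), and its fitted call (6.52 ± 0.45) rested on the first library. TIMP4 was at 9.63 and 21.9 CPM, from 35 and 8 UMIs (6.65 ± 0.76, FDR = 2.05e-06).

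Fibroblast markers moved with the mural-like class. The 10 fibroblast markers summed to 1324 and 1481 CPM in mural-like cells, against 25399 CPM in fibroblast-like cells of primary pancreas 1, and LUM, PDGFRA, FBLN1 and MFAP5 were at 0 in the second mural-like sum. They summed to 192 and 63.5 CPM in endothelial-like cells and to 3.61 to 31.9 CPM in the other classes with both libraries. Of the 25 members higher in mural-like cells, 15 had a higher mean in fibroblast-like cells. Among these were ADAMTSL3, at 14.9 and 19.2 CPM in mural-like and 552 CPM in fibroblast-like cells, and the gelatinase MMP2, at 9.36 and 13.7 CPM against 310 CPM. The part of fibroblasts in the mural-like calls was not tested.

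In endothelial-like cells, 21 members were higher and 3 lower (background 17.5% and 7.99%), with a median of 0.50 over the members against 0.10 over all genes. ADAM15, an ADAM with an integrin-binding sequence, was at 109 and 150 CPM (4.54 ± 0.25, FDR = 1.51e-11) and MMP28 at 66.3 and 69.0 CPM (4.37 ± 0.28, FDR = 1.88e-10). ADAM10 was at 370 and 434 CPM in endothelial-like cells against 111 and 139 CPM in ductal-like cells. ADAMTS9 was at 354 and 483 CPM in endothelial-like, 478 and 203 CPM in mural-like and 222 and 251 CPM in ductal-like cells, so that endothelial-like lay above ductal-like cells in both libraries while the mural-like values spanned most of that range. ADAMTS1 was at 69.1 and 25.5 CPM (4.53 ± 0.47, FDR = 2.91e-07), and ADAMTS4 at 19.1 and 3.11 CPM (4.16 ± 0.54, FDR = 5.97e-06). Mural-like cells were higher for ADAMTS1 in both libraries and for ADAMTS4 in the first alone. Of the 21 members higher in endothelial-like cells, 14 had a higher mean in fibroblast-like cells. The 12 myeloid markers summed to 366 and 455 CPM in endothelial-like cells, and their part in these calls was not tested.

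In ductal-like cells, 13 members were higher and 12 lower (background 22.2% and 9.22%), with a median of -0.42 against 0.18. ADAMTS18 was at 1156 and 1323 CPM against 4.05 to 91.7 CPM over all other classes and libraries (5.85 ± 0.29, FDR = 1.23e-11). ADAM28 (4.39 ± 0.38, FDR = 1.92e-08) was at 20.6 and 28.9 CPM, below myeloid-like cells at 114 and 80.9 CPM and above every other class. ADAMTS15 was at 73.5 and 39.6 CPM (3.68 ± 0.29, FDR = 3.77e-09), a range that overlapped that of mural-like cells at 60.8 and 82.1 CPM. MMP15 was at 68.6 and 45.1 CPM in ductal-like, 53.1 CPM in Schwann-like and 30.2 and 38.6 CPM in endothelial-like cells.

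ADAMTS18 was also above the lymphoid-like level of 4.05 and 5.70 CPM in endocrine-like cells, at 91.7 and 70.9 CPM. Its log2 fold change there over the mean of the other classes was 2.26 ± 0.32 (FDR = 1.04e-05). Mural-like cells at 56.1 and 82.1 CPM and fibroblast-like cells of primary pancreas 1 at 49.1 CPM lay above that level too. The ratio of ADAMTS18 to ADAMTS9 was 5.21 and 5.27 in ductal-like cells and 22.6 and 23.4 in endocrine-like cells. In the other classes with ADAMTS9 counts it ranged from 0.0186 in endothelial-like to 7 in lymphoid-like cells of primary pancreas 1. There ADAMTS9 was at 0.578 CPM, too low for a firm ratio, and the ratio was 1 in lymphoid-like cells of primary pancreas 2. The ratio of ADAMTS18 to the summed ductal markers was 0.0411 and 0.0408 in ductal-like cells and 0.505 and 0.349 in endocrine-like cells. The second ratio was also above that of ductal-like cells in mural-like cells, at 0.138 and 0.312, and in endothelial-like cells, at 0.0740 and 0.0528, whereas acinar-like cells lay on both sides of it, at 0.0199 and 0.0833. It was 0.0303 and 0.0309 in myeloid-like and 0.0257 and 0.0210 in lymphoid-like cells, and 0.0405 in fibroblast-like and 0.0229 in Schwann-like cells of primary pancreas 1. The part of free RNA in the ADAMTS18 counts of these classes was not tested.

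**Figure D4:**
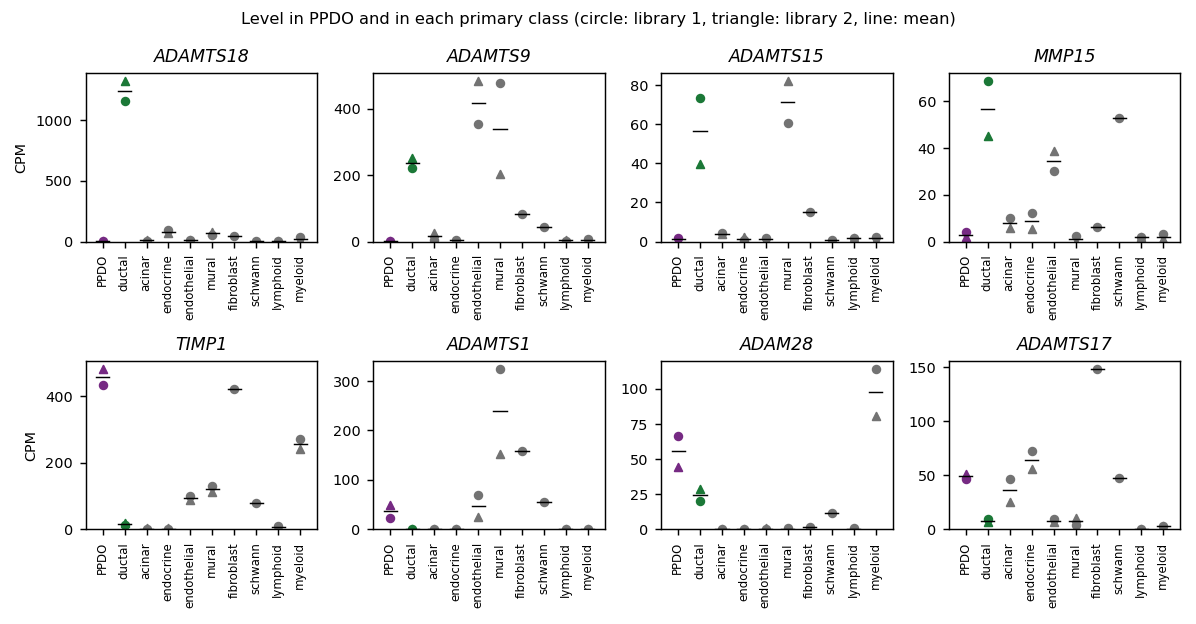
Level in CPM (linear axes from 0) of 8 members in PPDO and in each primary class; circles are library 1, triangles library 2 and lines the mean, and fibroblast and Schwann values come from primary pancreas 1 alone. ADAMTS18 is high in ductal-like cells alone on this scale, whereas TIMP1 in PPDO (435 and 481 CPM) lies near fibroblast-like cells (422 CPM) and far above ductal-like cells.

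The ductal-like classes of the 2 primary libraries were made of different clusters. A cluster led by OSGIN1 and EREG held 1261 cells of primary pancreas 1 and none of primary pancreas 2, whereas a cluster led by CWH43 and KIT held 1 and 1098 cells. Over the 5 cluster sums, ADAMTS18 ranged from 1084 to 1785 CPM and ADAMTS9 from 209 to 314 CPM, both far above PPDO. ADAMTS15 ranged from 25.5 to 75.8 CPM and MMP15 from 20.4 to 73.3 CPM, each lowest in the smallest cluster of 65 cells. MMP25 was at 24.5 CPM in the OSGIN1 cluster and at 0 to 4.43 CPM in the other 4. Without the OSGIN1 cluster, 12 members were higher and 13 lower in PPDO, with 11246 of 23382 genes called in that fit.

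In myeloid-like cells 12 members were higher and 9 lower (background 18% and 12.1%), with a median of -0.57 against -0.09. ADAM28 (6.63 ± 0.33, FDR = 7.31e-12), ADAM9 at 375 and 271 CPM (2.49 ± 0.21, FDR = 9.66e-09), TIMP2 at 220 and 655 CPM (3.05 ± 0.29, FDR = 6.30e-08) and TIMP1 at 272 and 243 CPM (2.97 ± 0.24, FDR = 5.22e-09) were higher there. ADAM17 was at 173 and 118 CPM in myeloid-like cells and at 25.5 and 32.5 CPM in ductal-like cells. In lymphoid-like cells 4 members were higher and 21 lower (background 15.2% and 15.7%; median -2.89 against -0.21), with ADAM19 at 16.2 and 62.8 CPM (2.18 ± 0.44, FDR = 0.00066) and ADAMTS10 at 20.8 and 39.9 CPM (1.61 ± 0.32, FDR = 0.000544). The ADAMTS10 mean of 30.4 CPM lay below those of mural-like (70.9 CPM), fibroblast-like (57.3 CPM) and endothelial-like cells (41.4 CPM). ADAM19 had a mean of 39.5 CPM, beside 39.7 CPM in myeloid-like cells. The 12 myeloid markers summed to 570 and 394 CPM in the lymphoid-like sums, against 6755 and 8547 CPM in myeloid-like cells. The part of myeloid cells in these calls was not tested. MMP9, stored by granulocytes, was at 19.1 CPM in lymphoid-like cells of primary pancreas 1 from 33 UMIs and at 0 in the 75 of primary pancreas 2, where 3 UMIs would be 5.70 CPM.

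Endocrine-like cells had 8 members higher and 13 lower (background 22.1% and 9.9%), with a median of -0.67 against 0.17. ADAM23, a protease-inactive ADAM that binds the neuronal LGI proteins, was at 117 and 71.8 CPM (4.45 ± 0.35, FDR = 3.84e-09), and ADAMTS17 at 72.5 and 56.2 CPM (3.32 ± 0.27, FDR = 4.77e-09). MMP16 was at 101 and 69.1 CPM (2.35 ± 0.33, FDR = 1.04e-05) and ADAMTS5 at 52.8 and 21.9 CPM (2.67 ± 0.31, FDR = 8.54e-07). Each of these genes had a higher mean in another class. ADAM23 was at 701 CPM in Schwann-like and ADAMTS5 at a mean of 293 CPM in mural-like cells. ADAMTS17 was at 148 CPM and MMP16 at 323 CPM in fibroblast-like cells of primary pancreas 1. Acinar-like cells had 6 members higher and 7 lower (background 12.3% and 10.6%; median -1.30 against -0.37), among them ADAMTS19 at 63.6 and 13.7 CPM (7.23 ± 0.50, FDR = 1.49e-09), ADAM12 at 27.8 and 28.2 CPM (3.76 ± 0.36, FDR = 1.69e-07) and ADAMTS17 at 46.9 and 25.3 CPM (3.1 ± 0.28, FDR = 4.89e-08). ADAMTS20 was at 19.1 CPM in the first acinar-like sum and at 1.44 CPM, from 2 UMIs, in the second. ADAM12 at 107 CPM and ADAMTS17 at 148 CPM were higher in fibroblast-like cells, and ADAMTS20 at 833 CPM in Schwann-like cells.

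Values of the classes measured in 1 library alone are given without a test. In fibroblast-like cells of primary pancreas 1, ADAMTSL3 was at 552 CPM, MMP2 at 310 CPM, MMP16 at 323 CPM, ADAM22 at 179 CPM and ADAMTS2 at 124 CPM, and in the 11 such cells of primary pancreas 2 MMP2 was at 394 CPM from 38 UMIs. MMP2, ADAMTS2 and ADAMTSL3 were under 5 CPM in ductal-like cells of both libraries. In Schwann-like cells ADAMTS20 was at 833 CPM and ADAM23 at 701 CPM, from 2433 and 2047 UMIs. These 2 genes lay under 20 CPM in all other classes, except for ADAM23 in endocrine-like cells.

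The third question was whether the organoid's own cell states differ in these genes. PPDO cells fell into 9 clusters, again formed without the family's genes, and values were compared between clusters within each library with no test. A member was taken to stand out in a cluster when it reached 10 CPM and over 2 times the mean of the other clusters in both libraries, which held for 8 members. Only genes that reach 10 CPM in both libraries of a cluster can meet this rule, and it was met by 8 of 15 such members (53.3%) and by 1926 of 9698 such genes (19.9%), a difference that was not tested. A gene such as MMP13, under 10 CPM in the other clusters, entered this count only through the cluster in which it was high. The 2 shares therefore cannot be read as an enrichment of members.

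Cluster 7, with 323 and 189 cells led by SPP1, KRT4 and WFDC2, held 5 of 8 ductal markers and 4 of these 8 members. MMP13 was at 53.6 and 56.0 CPM there, 22.2 and 22.1 times the mean of the other clusters, which ranged from 0.491 to 7.93 CPM. MMP15 was at 20.7 and 18.8 CPM in the same cluster (6.19 and 11.6 times the others), TIMP2 at 12.4 and 21.7 CPM (7.79 and 9.77 times) and ADAM28 at 149 and 119 CPM (2.62 and 3.03 times). Of these genes MMP15 and ADAM28 were also called higher in primary ductal-like cells than the mean of the other primary classes, although ADAM28 was higher still in myeloid-like cells and MMP15 in Schwann-like cells lay between the 2 ductal-like values, whereas MMP13 was at 0.255 and 0.561 CPM in primary ductal-like cells. ADAMTS18 was at 0.354 and 0.490 CPM in this cluster, from 4 and 3 UMIs.

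**Figure D5:**
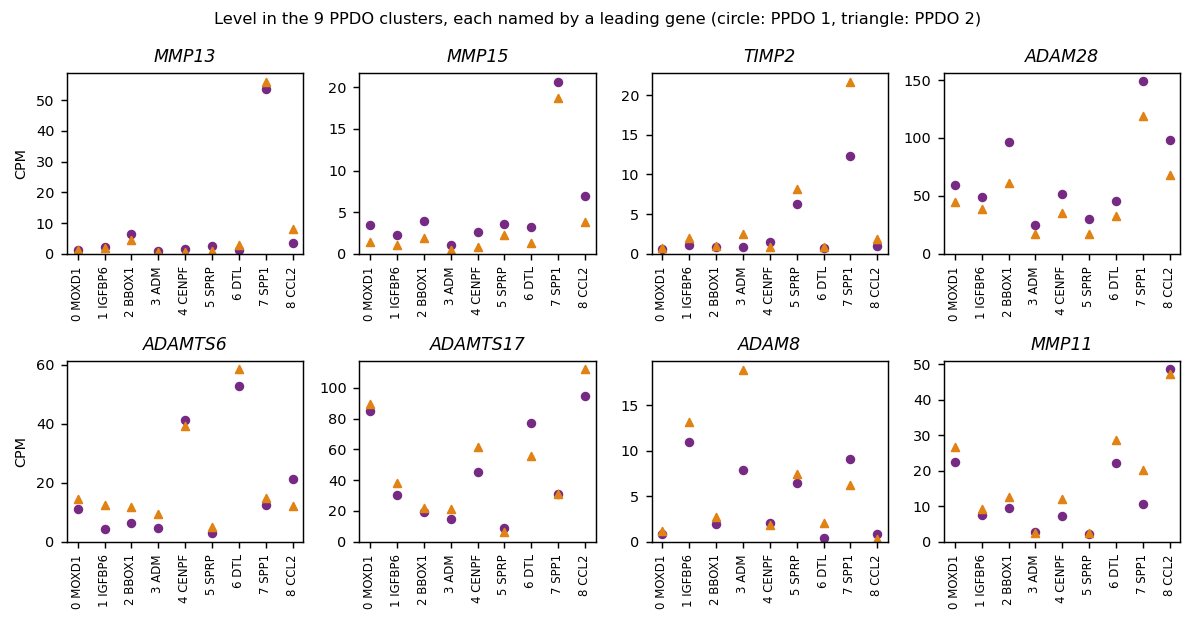
Level in CPM (linear axes from 0) of the 8 members that stood out in a PPDO cluster, in each of 9 clusters named by a leading gene, with circles for PPDO 1 and triangles for PPDO 2. MMP13, MMP15, TIMP2 and ADAM28 peak in the SPP1 cluster in both libraries, ADAMTS6 in the 2 cycling clusters (CENPF and DTL) and MMP11 in the CCL2 cluster.

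ADAMTS6 was higher in both cycling clusters, at 41.2 and 39.2 CPM in the CENPF and TOP2A cluster and at 52.8 and 58.4 CPM in the DTL and MCM3 cluster, and at 2.96 to 21.2 CPM in the other clusters. ADAMTS17 was at 84.6 and 89.5 CPM in the largest cluster, led by MOXD1, CDH13 and LGR6, and at 95 and 112 CPM in the small cluster led by CCL2 and ICAM1. In the cornifying cluster, led by SPRP and KRTDAP, ADAMTS17 was at 9.07 and 6.09 CPM, the lowest of the 9 clusters in both libraries. MMP11, the stromelysin that cleaves serpins, was at 48.6 and 47.3 CPM in the CCL2 cluster and at 2.10 to 28.6 CPM elsewhere. ADAM8 was at 11.0 and 13.1 CPM in the cluster led by IGFBP6, NDUFA4L2 and PTGS2 (2.99 and 2.59 times the others), and at 7.82 and 18.9 CPM in the cluster led by ADM and EGLN1.

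Members that were high in PPDO as a whole also varied between clusters. TIMP1 was at 571 and 635 CPM in the cluster led by BBOX1 and GPNMB and at 123 and 161 CPM in the ADM cluster and 154 and 159 CPM in the SPP1 cluster, the lowest pair of clusters in both libraries, though in opposite order. ADAM10 was at 34.8 and 31.9 CPM in the ADM cluster and at 60.6 to 144 CPM in the other 8, whereas ADAM9 was at 91.6 and 68.7 CPM in the ADM cluster, the highest of the 9 in both libraries. The ADM cluster was the shallowest of the 9, at 0.562 of the PPDO median depth, and held 1197 cells of PPDO 1 and 175 of PPDO 2. ADAMTS1 was at 1.12 and 2.89 CPM in the cornifying cluster and at 32.2 and 63.5 CPM in the MOXD1 cluster, and ADAM17 differed least, from 37.1 to 59.7 CPM over all clusters and libraries. ADAMTS13, high in PPDO 1 alone, was at 27.1 CPM in the ADM cluster of PPDO 1 and at 1.23 CPM in that of PPDO 2. MMP9 was at 8.98 CPM in the SPP1 cluster of PPDO 2 and at 0.354 CPM in that of PPDO 1.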

How the data were processed

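Single-cell RNA from 2 PPDO and 2 primary pancreas libraries was analysed. The authors deposited unnormalized UMI counts for each cell barcode and feature, made with Cell Ranger 7.1.0 per the file headers, and the submitters' processing notes name Sscrofa11.1. The barcode and feature tables deposited by the authors hold names (unit other). Correction for free RNA was not applied here. Features with iso and ext suffixes were summed to 30282 genes, of which 16699 took a symbol from the feature table, 722 from a gene name table and 12861 had none. The 62 members and all lists were chosen with earlier results of these data known. Gene positions are those of RefSeq for Sscrofa11.1, matched by symbol for 58 members.

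Cells were kept with at most 9000 features and 3% (PPDO) or 8% (primary) mitochondrial counts, and with at least 1000, 400 and 800 features in PPDO, primary pancreas 1 and primary pancreas 2, the last also with at least 3000 UMIs. Scrublet scores over 0.25 and 0.15 were removed as doublets in primary pancreas 1 and 2. Clusters (scanpy 1.11.5, Leiden resolution 0.5, 20 components, 2000 variable genes without the family's own) were named by markers. Sums of at least 20 cells were tested with edgeR 4.0.16 (quasi-likelihood, TMM, Benjamini-Hochberg FDR), and the SE is the absolute log2 fold change divided by the square root of F. DESeq2 1.42.0 was an alternative. On simulated counts with 23525 genes, 70% of genes changed by 2 and 98% of those changed by 3 on the log2 scale were recovered in the PPDO comparison, with 15 false calls. The changed genes were drawn from those with a mean over 1 CPM, and all genes had the common dispersion. The recovery therefore does not cover members under 1 CPM or genes with a wider spread. The study describes the libraries of each group as coming from different pigs, and p-values cover the spread between these 2 libraries. Floors (3 counts) cover counting error only.

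Members named were fixed key genes, the up to 10 with the largest change in each direction at 5 CPM or more, the up to 4 of each class at 10 CPM or more and the up to 3 of each PPDO cluster. Other called members were named after their values were seen, so that every call is accounted for. The shared replicate numbers did not pair the libraries (correlation of library differences across 23525 genes -0.0013).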

Additional observations from a re-analysis of the deposited data

Results flagged for a closer look

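Of the clusters left unnamed, 3 held members above the highest named class of at least 20 cells in the same library, and none of these cells entered a comparison. With 2 libraries a group, no outlier test was applied.

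In cluster 10 of primary pancreas 2 (340 cells led by SPHKAP, EXTL1 and RBPJL, with 2 of 14 endocrine markers and 0.17 of the median depth) ADAMTS19 was at 85.2 CPM from 140 UMIs, against 13.7 CPM in the highest such class. ADAM12 was at 72.4 CPM there from 119 UMIs, against 32.8 CPM. ADAMTS17 was at 68.1 CPM from 112 UMIs, against 56.2 CPM. ADAMTS20 was at 14.6 CPM from 24 UMIs, against 2.74 CPM. These 4 genes are those named as higher in acinar-like cells. In the 11 fibroblast-like cells of primary pancreas 2, too few for that limit, ADAMTS17 was higher still, at 93.3 CPM from 9 UMIs, ADAMTS19 was at 72.5 CPM from 7 UMIs, ADAM12 at 51.8 CPM from 5 UMIs and ADAMTS20 had no UMI.

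In cluster 19 of primary pancreas 1 (156 cells led by TCN1, LGR5 and TFF3, with 6 of 8 ductal markers and 0.143 of the median depth) ADAM28 was at 119 CPM from 116 UMIs, against 114 CPM in the highest named class. MMP15 was at 80.3 CPM from 78 UMIs, against 68.6 CPM. MMP11 was at 20.6 CPM from 20 UMIs, against 15.7 CPM.

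In cluster 23 of primary pancreas 1 (124 cells led by CXCL9 and FABP4, with 6 of 10 endothelial markers and 0.127 of the median depth) ADAM15 was at 122 CPM from 23 UMIs, against 109 CPM. These clusters stayed unnamed for too few markers or low depth, and the part of depth in these values was not tested.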

How the results depend on the processing

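Members called lower in PPDO ranged from 7 (without PPDO 2) to 17 (without primary pancreas 2) when each library was left out. These fits called 21.3% and 43.5% of all genes in either direction, so these shares are not a background for lower calls alone. Leaving out genes that another primary class held at over 2 times the ductal-like level gave 4 calls among 8 members tested, 0 higher and 4 lower, with 5360 of 10250 genes called. This filter keeps genes that are high in ductal-like cells, and 0 of the 12 members called higher were left in the test, so the direction of these calls was set by the filter. With the replicate numbers as a block, 21 members were called, 11 higher and 10 lower (35.0% of those tested, against 8196 of 23525 genes or 34.8%). In the classes 47 of 50 members were higher somewhere without the block and 49 with it, against 67.3% and 72.7% of 18104 genes.

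ADAMTS1 lost its call with the block, DESeq2, ductal-like PPDO cells alone and without either PPDO library (FDR from 0.0626 to 0.117 over these), ADAMTS5 and TIMP2 without either PPDO library, and ADAM17 and ADAM28 with the family among the clustering genes. MMP9 gained a call with the block, DESeq2 and without PPDO 1, ADAMTS4 without primary pancreas 1, MMP14 with ductal-like PPDO cells alone and ADAM9 with library totals alone. Only key genes and those with the largest changes were followed in this way. With the block, 10 of the 12 higher and 10 of the 12 lower calls were kept, so that other members lost calls too. The lower calls lost there lay among ADAMTS2, ADAMTS19, ADAMTSL3, MMP16 and MMP17, which were not followed singly. The causes were not tested.

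Directions turned for TIMP2 with ductal-like PPDO cells alone (1.11), for ADAM10 with library totals alone (-0.29), and for ADAM9 with ductal-like PPDO cells alone (0.12) and without the OSGIN1 cluster (0.023). ADAMTS4 turned with doublets kept (-0.32), with 1 filter for both primary libraries (-0.33), with the family among the clustering genes (-0.50), without the OSGIN1 cluster (-0.73) and with library totals alone (-0.12). Over the libraries left out, ADAM9 ranged from -0.57 to 0.0020, ADAMTS4 from -0.65 to 8.89, MMP2 from -2.11 to 1.63 and MMP28 from -0.76 to 0.17. In mural-like cells ADAMTS4 was at -0.35 on the log2(CPM + 1) scale without primary pancreas 1.

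Over all genes 10243 of 23525 were called, but 5032 of 21417 and 4577 of 21492 without PPDO 1 and 2 and 5575 of 22571 with the family among the clustering genes. With library totals alone the median log2 fold change of all genes was -0.44, and 3278 genes were higher and 6893 lower, rather than 5348 and 4895, with 12 members higher and 17 lower. Of the 24 members called, DESeq2 called 11 of 12 higher and 12 of 12 lower in the same direction. PPDO states gave 8 members, 10 without PPDO 1 and 12 without PPDO 2, while the share of eligible genes went from 19.9% to 25.7% and 26.5%. The ductal-like sums, at 24947567 and 43207312 UMIs, limit what can be said of members under 1 CPM, and the mural-like sum of primary pancreas 2 held 365213 UMIs. The alternatives without the OSGIN1 cluster, with library totals alone, with at least 10 cells a sum and for states without a library were chosen after the data were seen.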
